A study of Schizosaccharomyces pombe with 8 samples.

Results

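Nascent transcription over the coding parts of genes was followed in fission yeast, Schizosaccharomyces pombe, whose histone deacetylases (HDACs) had been inhibited. The coding entries of chromosomes I, II and III were summed per gene, which gave 5118 genes from 10190 of the 19343 entries in the deposited table, 1 of them with 2 isoforms summed. Both groups carried a flag tag on Rpb3, a subunit of RNA polymerase II (Pol II). One group was untreated, the other received the HDAC inhibitor trichostatin A (TSA) at 20 µg/ml during 2.5 h, and each held 2 biological replicates. A lysate of budding yeast, also with flag-tagged Rpb3, was added to every lysate at 50 to 1 as a spike-in, so the tag was shared by all groups. The assay was NET-seq, in which the polymerase is immunoprecipitated and the RNA attached to it is sequenced.

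RNA polymerase II reads a gene in the path of nucleosomes, and acetyl groups on the histone tails are added by acetyltransferases and removed by deacetylases. Fission yeast has the class I enzymes Clr6 and Hos2 and the class II enzyme Clr3, which TSA inhibits, and the NAD-dependent sirtuins such as Sir2, which it does not. Deacetylation is best known there for keeping heterochromatin, chromosome ends and many meiotic genes silent. Because nascent RNA is captured before export or decay in the cytoplasm, the reads over a coding part follow the amount of engaged polymerase more closely than the amount of mRNA.

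The 4 immunoprecipitated libraries held 1771656 to 3047202 reads over coding parts, and the median tested coding part had 162.5 to 276 reads. Log2 values of replicates correlated with a Pearson r of 0.987 (untreated) and 0.981 (TSA) across coding parts, against 0.946 to 0.957 between groups. Of the 5118 coding parts, 4962 had a mean above 5.66 spike-in normalised reads and were tested, and 156 did not, of which 62 had no read in any library. A normalised read is a read multiplied by the factor of its library, set from budding yeast ribosomal protein genes. Strands were counted apart, since the antisense entry that covers the same 1131 nt as dmc1 was listed at 991 reads in untreated 1, while the coding part of dmc1 was listed at 35.

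The first question was how the polymerase over coding parts as a whole answered TSA. Summed over all coding parts, the spike-in normalised reads were 2252538 and 1666900 in the untreated libraries and 1290100 and 1432100 in the TSA libraries. Both TSA libraries lay below both untreated ones, at 0.695 of the untreated mean, and the exact two-sided permutation test gave p = 0.33, the smallest p that 2 against 2 libraries allow. The value of the median coding part was 210 and 151 untreated against 115.9 and 131.4 with TSA. On the scale of total reads the difference disappeared, with a ratio of sums of 0.977 (exact permutation p = 1). These are bulk values, scaled to an added lysate. Fewer polymerases per cell, fewer responding cells and a different amount of spike-in cannot be told apart. Untreated 1 stood above untreated 2 by a median of 0.45 on the log2 scale, close to the size of the drop itself.

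Change per gene was taken as the log2 ratio of TSA over untreated after adding a pseudocount of 5.66 normalised reads. Its median over the 4962 coding parts was -0.51, a 1.42-fold drop, and 89.9% of the coding parts lay below 0. The middle of the distribution was narrow, with the 25th percentile at -0.73 and the 75th at -0.27, and 83.8% of coding parts lay within 0.5 of the median. Total-read scaling placed the median at -0.05, so the choice of scale moved the median by 0.46. The shift of single genes lay between 0.39 and 0.48 from the 5th to the 95th percentile, and was smaller where reads were few. For this reason gene groups are described below relative to the median of all coding parts.

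**Figure D1:**
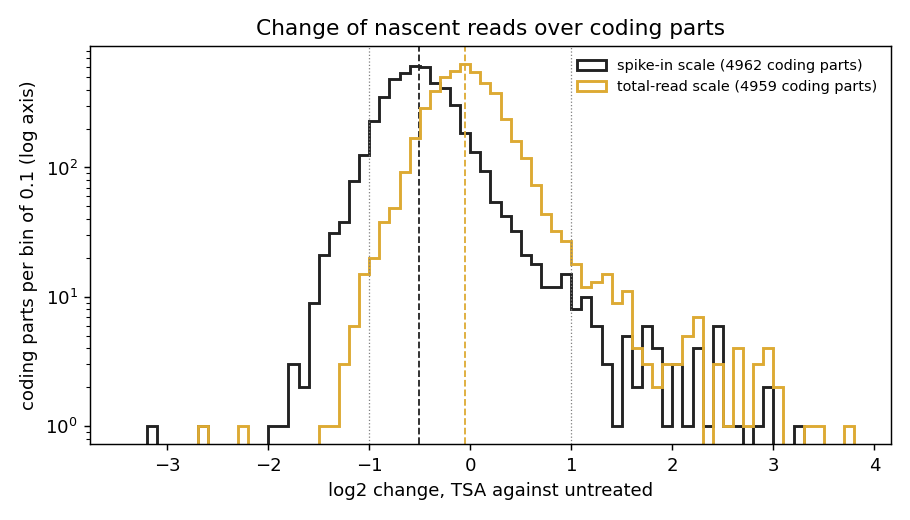
Histogram of the log2 change (TSA against untreated) of each tested coding part on the spike-in scale (black) and on the total-read scale (yellow), with a logarithmic count axis. Dashed lines mark the medians of -0.51 and -0.05 and dotted lines a 2-fold change, and both distributions have a longer tail to the right.

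A coding part was called when limma gave an adjusted p under 0.05 and the change was 2-fold or more. On the spike-in scale 67 coding parts rose (1.35% of those tested) and 312 fell (6.29%). On the total-read scale 126 rose (2.54%) and 28 fell (0.565%), so the excess of falls depended on the spike-in and turned to an excess of rises without it. The smaller set was nested in the larger one in each direction. Changes were 0.21 to 0.48 higher on the total-read scale, with a median standard error of 0.22 against 0.34. This nesting therefore follows largely from the scaling. All 67 rises of the spike-in scale rose on the total-read scale, which is 53.2% of the rises there, and all 28 falls of the total-read scale were among the 312, which is 8.97% of them. In all 67 rises both TSA libraries lay above both untreated libraries, which held for 4.11% of all tested coding parts, and in 311 of the 312 falls both lay below, which held for 67.1%.

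The counts leaned on single libraries. Without untreated 1, which had the highest median of the 4, the fit called 34 rises and 10 falls, and without untreated 2 the fit called 50 rises and 1152 falls. Without TSA 1 there were 25 rises and 2 falls, and without TSA 2 there were 15 and 4. Of the original calls, 14 rises and 2 falls were kept without each library in turn. A fit without a TSA library took its spread from the untreated pair alone and had a median standard error of 0.63, against 0.34 with all libraries, so a call lost there does not show a smaller change. limma shrank the variances completely to their common trend, so that before any test the fold threshold alone gave 67 and 312 as well. The SE and adjusted p given for the change of a coding part therefore rest on that trend. They do not measure the spread of its own libraries.

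Of the 12 leading rises, 11 lay in the lowest of 4 classes of untreated reads per kb and 1, pho1, in the highest. The untreated reads that set the class also enter the change, and 61 of all 67 rises lay in that lowest class. SPBPB2B2.06c (chrII:4469200-4471005, minus strand), annotated as a phosphoprotein phosphatase, had 25 and 7.66 normalised reads untreated and 187.7 and 189.2 with TSA, a 9.6-fold rise on the pseudocount scale (log2 change 3.26 ± 0.35 SE, adjusted p = 4.2e-17, limma). SPBC1289.14 (chrII:4412376-4413350, plus strand), an adducin-related protein, went from 15 and 9.85 to 102.1 and 183.5 (log2 change 3.00 ± 0.35, adjusted p = 2.8e-14). The transcription factor gene grt1, near the other end of chromosome II, went from 14 and 9.30 to 125.3 and 131.8 (7.82-fold, adjusted p = 5e-14). In these 3 genes the lowest TSA library was above the highest untreated library by a wide margin.

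The meiotic recombinase gene dmc1 had 35 and 18.6 normalised reads untreated and 156.8 and 220.7 with TSA, 6.11-fold (log2 change 2.61 ± 0.35, adjusted p = 2.4e-11). The coding part of mei2, which encodes the RNA-binding protein that commits cells to meiosis, went from 36 and 21.9 to 177.2 and 187.5 (5.55-fold). The gene crp79, for a poly(A)-binding protein, went from 21 and 13.1 to 108.2 and 91.3 (4.70-fold). The adducin-related gene mug14 went from 15 and 14.8 to 90 and 146.3 (5.87-fold), and its untreated libraries differed the least of the 12.

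The other 5 leading rises encode sugar transporters and enzymes. The hexose transporter gene ght6 went from 38 and 19.7 to 140.2 and 232.8 (5.61-fold). The gluconate transporter gene ght3 went from 28 and 10.9 to 98.8 and 117.2 (4.79-fold). The epimerase gene gal10, of galactose use, went from 199 and 131.3 to 756.8 and 1147 (5.60-fold). The enolase gene eno102 went from 36 and 21.9 to 142.4 and 213.4 (5.32-fold), as read from uniquely mapped reads beside a highly transcribed paralogue, eno101. The acid phosphatase gene pho1 was the most transcribed of the 12, with 472 and 409.2 normalised reads untreated against 2422 and 2171 with TSA (5.16-fold, log2 change 2.37 ± 0.30, adjusted p = 6.8e-12). Of these 12 rises, 9 kept their call without each library in turn, while ght6, gal10 and eno102 lost it without TSA 2, where their log2 changes were 2.13, 2.19 and 2.13. Without any 1 library the log2 changes of the 12 lay between 1.75 and 3.87.

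**Figure D2:**
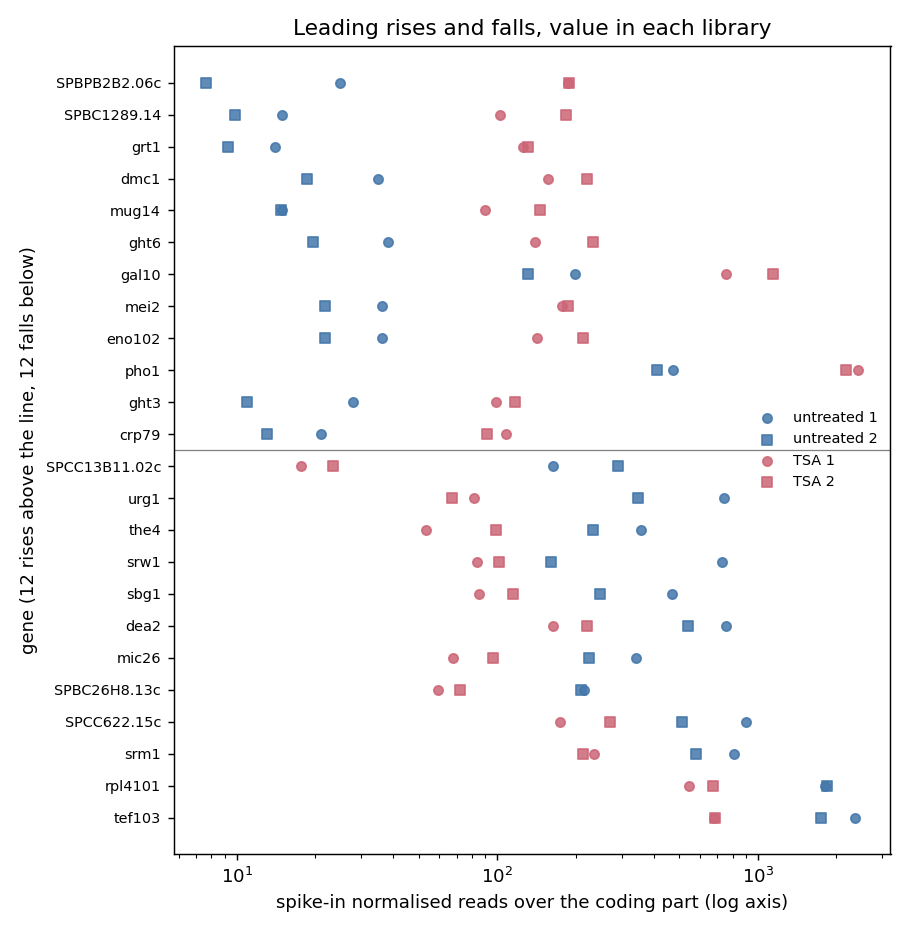
Spike-in normalised reads over the coding part (log axis) of the 12 leading rises and 12 leading falls, 1 point per library (blue untreated, red TSA, circles replicate 1, squares replicate 2). The genes were chosen to have no overlap between the groups, and srw1 has the widest spread within a group, at 731 and 161.4 untreated.

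Of the 12 leading falls, 11 lay in the highest class of untreated reads per kb, where the rule itself, a mean of at least 50 normalised reads, keeps out falls from low levels. That class held 147 of all 312 falls. SPCC13B11.02c (chrIII:1593402-1593818, minus strand), of unknown function, had 164 and 291 normalised reads untreated and 17.7 and 23.4 with TSA, an 8.61-fold fall (log2 change -3.11 ± 0.35 SE, adjusted p = 7.2e-16, limma). The coding part of urg1, a uracil-responsive gene annotated as GTP cyclohydrolase II, went from 745 and 348.4 to 81.7 and 67.1 (6.47-fold lower, adjusted p = 9.9e-13). These were the only 2 of the 12 that kept their call without each library in turn. The next fall was markedly smaller, that of the thioesterase gene the4, from 356 and 234.1 to 53.5 and 98.6 (3.75-fold lower, adjusted p = 3.4e-06).

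The other leading falls lay between 2.96-fold and 3.57-fold. They held srw1, an activator of the anaphase-promoting complex, which went from 731 and 161.4 to 83.9 and 101.8 (log2 change -1.84 ± 0.34). DESeq2 on the recovered reads did not call it (adjusted p = 0.081). The gene sbg1, for a linker of the contractile ring, went from 467 and 247.8 to 85 and 114.8, and mic26, of the mitochondrial MICOS complex, from 340 and 224.8 to 67.9 and 96.2. Enzymes of nitrogen compounds were among them, namely the adenine deaminase gene dea2 (from 752 and 539.9 to 164.5 and 221.5) and the spermidine synthase gene srm1 (from 812 and 580.4 to 235.2 and 213.4). SPBC26H8.13c and SPCC622.15c fell 3.07-fold each. Without TSA 1, 10 of the 12 falls lost their call, and likewise 10 without TSA 2 and 5 without untreated 1. The fits without a TSA library have the wider error given above. The log2 changes of the 12 without any 1 library lay between -3.51 and -0.77, the latter being srw1 without untreated 1, at -0.77 against -1.84 with it.

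Both remaining leading falls encode parts of the translation machinery. The coding part of rpl4101, which encodes the very small ribosomal protein L41, went from 1814 and 1836 normalised reads to 546.5 and 671.7 (2.99-fold lower, adjusted p = 2.9e-05). The gene tef103, for translation elongation factor EF-1 alpha, went from 2366 and 1754 to 680.1 and 687.9 (2.96-fold lower, adjusted p = 2.9e-05). Both belong to gene families with near-identical copies, so their reads are those that mapped uniquely.

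Promoter windows were read to see whether the genes that fell or rose on both scales shared known sites, each window running from 250 bases before to 50 after the 5′ end of the gene entry. The HomolD box (CAGTCACA, searched on both strands), known from ribosomal protein genes of fission yeast, was in 2.48% of 5117 windows, in 18 of the 312 falls (5.77%), in 3 of the 28 falls on both scales and in none of the 67 rises. Those 3 windows are printed because their genes fell on both scales. They belong to rpl4101 (chrI:5402227-5402526, minus strand), to rlp7, a ribosome assembly gene (chrI:1712534-1712833, plus strand), and to tef103 (chrII:627507-627806, minus strand), written 5′ to 3′ with the box in capitals and taken from the RefSeq genome ASM294v3.
rpl4101: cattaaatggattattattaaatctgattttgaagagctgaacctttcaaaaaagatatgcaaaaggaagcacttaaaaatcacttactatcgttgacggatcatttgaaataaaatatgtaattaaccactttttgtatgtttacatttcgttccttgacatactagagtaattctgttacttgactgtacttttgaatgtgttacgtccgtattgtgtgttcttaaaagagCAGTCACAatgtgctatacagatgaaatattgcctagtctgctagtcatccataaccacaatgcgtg
rlp7: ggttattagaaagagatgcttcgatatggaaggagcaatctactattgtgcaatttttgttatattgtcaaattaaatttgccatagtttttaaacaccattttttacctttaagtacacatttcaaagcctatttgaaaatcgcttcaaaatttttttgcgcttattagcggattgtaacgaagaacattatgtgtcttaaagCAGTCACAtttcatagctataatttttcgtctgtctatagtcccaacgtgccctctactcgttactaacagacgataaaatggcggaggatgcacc
tef103: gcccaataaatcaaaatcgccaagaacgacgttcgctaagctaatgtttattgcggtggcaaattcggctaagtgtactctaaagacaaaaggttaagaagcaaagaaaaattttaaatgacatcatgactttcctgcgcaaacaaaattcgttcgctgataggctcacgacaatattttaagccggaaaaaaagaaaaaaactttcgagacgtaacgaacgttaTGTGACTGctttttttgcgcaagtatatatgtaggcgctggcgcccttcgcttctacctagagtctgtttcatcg

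In the window of tef103 the box lies on the strand opposite to the gene, as TGTGACTG. Over all 127 genes with a HomolD box, the median log2 change stood 0.21 below that of all coding parts, and 18 fell (14.2%, against 6.29% of all). Of the 127, 79 were annotated as cytoplasmic ribosomal proteins. Those 79 had a median 0.26 below that of all coding parts, and 9 fell (11.4%). The 65 ribosomal protein genes without these exact letters in the window also had a median 0.26 below it, and 8 fell (12.3%). The 48 other genes with the box had a median 0.08 below it, and 9 fell (18.8%). Whether the box or the class of product has a part in the falls was not tested.

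Among the rises, the stress-starvation response element (CCCCTC, both strands) was in 4 of 67 windows (5.97%), against 2.05% of all windows. The Ste11 TR box (TTCTTTGTT, both strands), the element through which the Ste11 factor acts on mating and meiotic genes, was at 3 places in the window of mei2, the single rise that held it, while 1.99% of all windows had the box at least once. The windows of mei2 (chrI:4514966-4515265, minus strand), with the TR boxes in capitals, and of SPBC1289.14 (chrII:4411822-4412121, plus strand) and mug14 (chrII:128410-128709, plus strand), with CCCCTC or its reverse complement GAGGGG in capitals, are printed as those of leading rises with a match. The window of mei2 also holds CCCCTC at 1 place, left in lower case.
mei2: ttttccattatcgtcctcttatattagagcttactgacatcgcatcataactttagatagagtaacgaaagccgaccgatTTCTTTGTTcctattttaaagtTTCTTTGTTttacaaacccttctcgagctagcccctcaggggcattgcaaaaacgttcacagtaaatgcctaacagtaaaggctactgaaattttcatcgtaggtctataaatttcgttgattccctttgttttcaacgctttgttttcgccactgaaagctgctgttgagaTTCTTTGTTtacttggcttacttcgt
SPBC1289.14: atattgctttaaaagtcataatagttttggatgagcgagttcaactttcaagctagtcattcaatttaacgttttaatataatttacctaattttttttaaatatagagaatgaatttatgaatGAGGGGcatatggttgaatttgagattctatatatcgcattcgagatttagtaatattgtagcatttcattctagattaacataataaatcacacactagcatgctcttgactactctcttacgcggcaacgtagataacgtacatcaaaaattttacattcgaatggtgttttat
mug14: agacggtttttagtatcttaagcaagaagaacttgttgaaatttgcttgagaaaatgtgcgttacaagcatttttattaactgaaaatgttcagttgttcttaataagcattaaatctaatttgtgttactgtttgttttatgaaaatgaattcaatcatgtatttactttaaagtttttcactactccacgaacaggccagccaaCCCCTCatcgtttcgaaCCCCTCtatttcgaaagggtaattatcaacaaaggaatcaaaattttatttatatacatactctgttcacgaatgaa

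The remaining 5 sites were searched in the same way. The TATA box (TATAAA) was in 50% of all windows, in 58.2% of the rises and in 50.6% of the falls, and the forkhead site (GTAAACA) in 16.6%, 17.9% and 16.7%. The CRE core (TGACGT) was in 5.78% of all windows, 4.48% of rises and 7.69% of falls. The MluI box (ACGCGT) was in 3.03%, 5.97% and 3.21%, and the Pap1 site (TTACGTAA) in 0.508%, in no rise and in 2 falls. Coding parts with any one of these had a median change within 0.04 of that of all coding parts. These matches describe the letters of the windows only.

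The response varied with the level of transcription. Coding parts were ranked by their mean normalised reads per kb and split into 4 equal classes. In the lowest class (median 47.7 reads per kb) 44 of 1241 rose and 50 fell, and its median change stood 0.13 above that of all coding parts. In the highest class (median 462.9 reads per kb) 7 of 1241 rose and 120 fell, and the median stood 0.06 below. On the total-read scale 80 rose and 3 fell in the lowest class, and 16 rose and 16 fell in the highest. The relative medians there were 0.10 and -0.04. The pseudocount draws changes towards 0 where reads are few, and its part in these differences was not tested. Across the 4962 coding parts the change and the level had a Spearman rho of -0.22, where the points share libraries and the level holds the same TSA values as the change. Leaving out the ribosomal protein genes left 118 falls in the highest class (9.79%) and 49 in the lowest (4.07%), while the relative median of the highest class went from -0.06 to -0.02. Of the 67 rises, 12 had an untreated mean under the filter of 5.66 normalised reads and were tested through their TSA values only.

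The largest changes of each class, among coding parts called on both scales and not described above, show the range beyond the leading genes. In the lowest class the telomeric helicase gene tlh2 was listed at 0 and 1.64 normalised reads untreated and at 43.1 and 36.4 with TSA, where only reads unique among its near-identical copies were counted. With so few untreated reads its fitted change depends on the pseudocount, and no fold is given. In the same class, hry1 (from 4 and 2.74 to 32 and 61.4) and the melibiase gene mel1 (from 11 and 3.83 to 65.7 and 59), also rose. The largest falls of that class were sen15, of the tRNA splicing endonuclease (2.84-fold lower), the methyltransferase gene tae1 (2.69-fold lower) and fmd3 (2.51-fold lower). In the second class aes1 rose 4.64-fold, the spore wall gene meu10 4.62-fold and SPBPB21E7.11 4.46-fold, while the mitochondrial ribosomal protein gene mrps17 fell 2.77-fold, the uracil salvage gene uck2 2.71-fold and SPAC1A6.11 2.64-fold.

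Of the leading rises, gal10 and pho1 belong to the highest class. In the third class cmt2 rose 3.46-fold, SPAPJ691.02 2.86-fold and the hexose transporter gene ght4 2.20-fold. The falls there were pop7, of RNase P (2.92-fold lower), cbm1 (2.85-fold lower) and nhm1 (2.76-fold lower). In the highest class the invertase gene inv1 went from 336 and 270.2 to 690.6 and 1664, the metallothionein gene zym1 from 80 and 70.6 to 178.3 and 367, and lsd90 from 1055 and 925.6 to 1556 and 3964. In each of these 3 genes TSA 2 was well above TSA 1. The largest falls of the class were hsp9, SPCC794.15 and SPAC513.07, at 2.95-fold, 2.93-fold and 2.91-fold. DESeq2 on the recovered reads did not call nhm1 (adjusted p = 0.11) or lsd90 (adjusted p = 0.077). Among these examples tlh2, hry1, mel1 and aes1 kept their call without each library in turn. Each of the other rises lost it without TSA 2, ght4 and lsd90 without any 1 of the 4 libraries, and each fall without untreated 1 and without TSA 1.

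**Figure D3:**
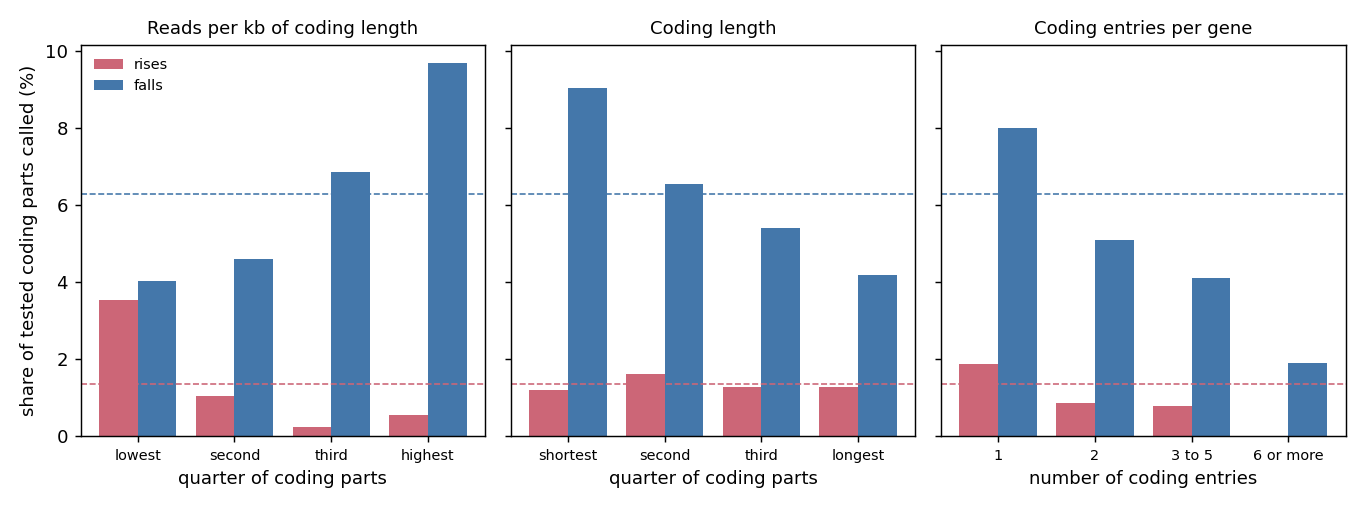
Share of tested coding parts called as rises (red bars) or falls (blue bars) on the spike-in scale, by class of normalised reads per kb, by class of coding length and by number of coding entries per gene. Dashed lines mark the shares over all coding parts, 1.35% and 6.29%, and the falls go from 4.03% to 9.67% with level, from 9.03% to 4.19% with length and from 7.99% to 1.91% with the number of coding entries.

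The 10 coding parts with the densest transcription in untreated cells were mostly enzymes of glycolysis and ribosomal proteins. The densest was hsp9, for a small heat shock protein, with 6590 and 4547 normalised reads untreated and 1015 and 3384 with TSA over 207 nt. It fell 2.95-fold (adjusted p = 2.6e-06), although its TSA libraries differed by more than 3-fold and the call was lost without untreated 1 or without TSA 1. Neither DESeq2 (adjusted p = 0.20) nor limma on median-ratio scaled values (0.066) called it. The glycolytic genes tdh1, eno101, fba1, gpm1 and pgk1 and the alcohol dehydrogenase gene adh1 had log2 changes of -0.64 to -0.35. None of these genes was called, and the median over all coding parts was -0.51. For eno101, which had the most reads of them, the values were 31352 and 22275 untreated against 18617 and 20544 with TSA. The ribosomal protein gene rpl39 went from 1552 and 2593 to 1153 and 917.4 (log2 change -0.96, adjusted p = 0.022), just under the fold threshold, and SPAC27E2.11c had a log2 change of -0.60 (adjusted p = 0.11).

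Gene structure and position were described next. Coding parts in the shortest class of length (up to 690 nt) held 112 falls of 1241 (9.03%) and those in the longest class (1770 nt or more) held 52 (4.19%), while rises were 15 and 16. The median change did not follow this order, at -0.01 and -0.02 relative to all coding parts, and the Spearman rho of change with length was -0.0020 across coding parts. Genes with 1 coding entry fell in 7.99% and rose in 1.87% of cases, and genes with 6 or more fell in 1.91% (3 of 157) with no rise. On the spike-in scale the order by coding entries was the same inside each class of level. On the total-read scale it was not, with 1 fall of 675 against 2 of 566 in the lowest class and 3 against 3 in the third. In the highest class 12.1% of genes with 1 coding entry fell against 6.74% of those with more, and in the lowest class 4.89% against 3.00%. Leaving out ribosomal protein genes gave 7.97% against 4.05%. Falls made up 6.20%, 6.49% and 6.11% of the coding parts on chromosomes I, II and III.

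Position along the chromosomes was counted for both directions. Of the 67 rises, 27 had a neighbouring gene that also rose (40.3%), while 2.14% of all tested coding parts had a risen neighbour. Of the 312 falls, 55 had a neighbour that also fell (17.6%), against 11.8% of all tested coding parts. Within 100 kb of an end of chromosome I or II lay 30 of the 67 rises, 6 of them among the 12 leading ones, and 3 falls. The 62 coding parts tested there were 1.25% of all those tested. Of them 48.4% rose and 4.84% fell, against 1.35% and 6.29% over all coding parts. That zone held 123 coding parts, of which 61 had too few reads to be tested, so genes there could pass the filter through their TSA values alone. A listed non-coding entry covered at least 100 nt of the coding part on the opposite strand in 41.8% of rises, 29.8% of falls and 31.1% of all tested coding parts. The 1545 coding parts with such an entry had a median change 0.01 above that of all coding parts.

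A gene entry also covers introns and the transcribed stretches before and after the coding part, and the next comparison asked whether TSA moved the polymerase between the coding part and the rest of its gene. The log2 ratio of coding to other reads was tested in 4616 genes with limma, and a ratio within a library does not depend on its scaling factor other than through the pseudocount. The ratio rose in 9 genes (0.195%) and fell in 22 (0.477%), with a median change of -0.06. The median log2 ratio of a library was 1.17 and 0.93 untreated and 0.90 and 1.10 with TSA, so the groups overlapped.

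The largest rise of the ratio was that of pho1, whose entry holds 1184 nt before the coding part. Its other reads were 2114 and 1444 untreated and 1199 and 1589 with TSA, while its coding reads rose, and the log2 ratio went from -2.15 and -1.80 to 1.01 and 0.45 (change 2.71 ± 0.31 SE, adjusted p = 1.5e-10, limma). The whole entry of pho1 changed by 0.75 on the log2 scale and was not called. In crp79, with 22 nt before the coding part, 160 nt after it and 247 nt of introns, the ratio went from -0.10 and -1.47 to 1.64 and 1.58 (change 2.40, adjusted p = 2.8e-08). Its other reads were 23 and 46.5 untreated and 30.9 and 26.7 with TSA. The entry of mrpl1, listed at 131 and 138.4 untreated and 114.8 and 118.8 with TSA, overlaps that of crp79 by 62 nt on the same strand. Its part in the ratio was not tested. In pol4, for a DNA polymerase of family X, it was the other reads that dropped, from 279 and 205.7 to 71.2 and 84.9, while the coding part was not called. The entry of pol4 overlaps by 65 nt on the same strand that of tif5, which was listed at 1695 and 1104 untreated and 695 and 801.8 with TSA, and its part in the ratio was not tested.

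Further rises of the ratio, taken with the pseudocount, were those of mug14 (change 1.80), pan3 (1.59) and SPBPB2B2.06c (1.48). The other reads of SPBPB2B2.06c were 0 and 1.09 untreated and 23.7 and 9.70 with TSA. Its change of ratio therefore depends on the pseudocount, and without it untreated 1 has no finite ratio. The other reads of mug14 were 13 and 6.56 untreated and 15.5 and 25.1 with TSA. A non-coding entry that overlaps its gene entry by 67 nt on the same strand was listed at 18 and 12.6 untreated and 17.1 and 27.5 with TSA. In pan3, a subunit of the poly(A) nuclease, a ribosomal RNA entry on the same strand that overlaps the gene entry by 161 nt was listed at 2240 reads in untreated 1, beside 2336 other reads of pan3. The part of the ribosomal RNA entry in the change of the ratio of pan3, and of the non-coding entry in that of mug14, was not tested. Without untreated 1 or without TSA 2, pan3 lost its call. So did mug14 without untreated 1, and SPBPB2B2.06c without untreated 2 or TSA 2. The call of pho1, crp79 and pol4 was kept without each library in turn.

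The ratio fell most in rpc37, a subunit of RNA polymerase III. Its coding reads went from 59 and 44.3 to 14.9 and 22.6, and its other reads from 38 and 20.2 to 59.1 and 53.3 (change of the ratio -2.11 ± 0.31, adjusted p = 6.3e-07, limma). Of that entry 288 nt lie before the coding part and 34 nt after it. In gmh1, a galactosyltransferase gene with 618 nt after the coding part, the coding reads were 14 and 13.7 untreated and 12.7 and 7.27 with TSA and the other reads went from 33 and 24.6 to 71.8 and 109.1. Its entry overlaps that of SPAC5H10.10 by 66 nt on the same strand, with 160 and 128 reads untreated and 127.5 and 182.7 with TSA there. In the transcription factor gene rsv2 the coding reads went from 2902 and 2326 to 659.7 and 1540, with other reads between 277.9 and 370.2 in all libraries. The securin gene cut2 (change -1.58), rlp7 (-1.47) and SPAC5H10.03 (-1.44) followed. In rlp7, where the other reads were 1884 in untreated 1, the snoRNA snoR39a, which overlaps the gene entry by 76 nt on the same strand, was listed at 1701 there. Of these 6 falls, only that of rpc37 was kept without each library in turn.

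**Figure D4:**
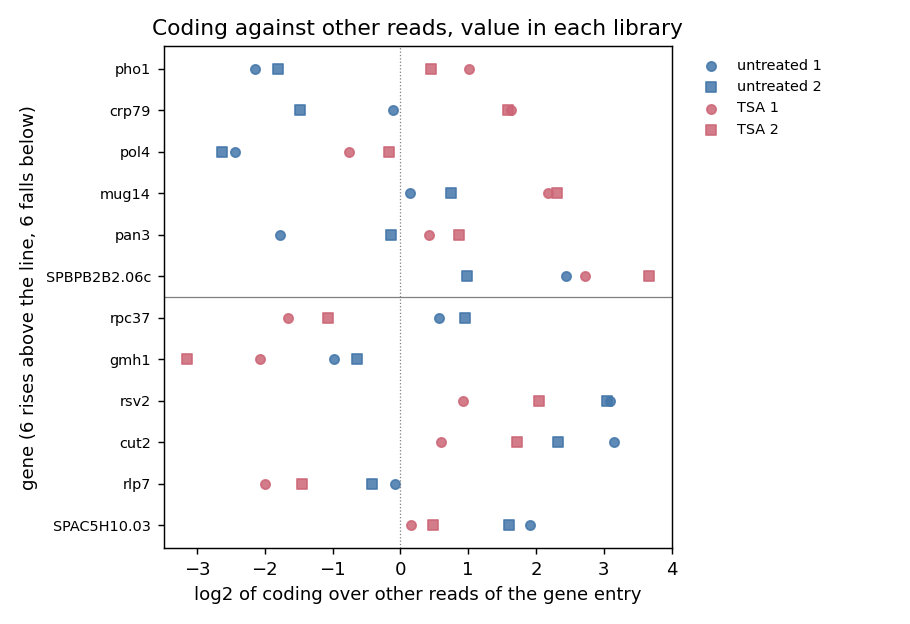
Log2 ratio of coding to other reads of the gene entry in each library (blue untreated, red TSA, circles replicate 1, squares replicate 2) for the 6 largest rises and 6 largest falls of the ratio. In all 12 genes both TSA values lie on the same side of both untreated values, which a choice by the size of this change favours. The ratios include the pseudocount, on which the rise of SPBPB2B2.06c depends. The ratio of pho1 moved from -2.15 and -1.80 to 1.01 and 0.45.

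The genes of the inhibited enzymes themselves changed little. The coding part of clr6 had 303 and 180 normalised reads untreated and 170 and 200.5 with TSA, so its groups overlapped, and so did those of hos2 (142 and 103.9 against 65.7 and 118). The class II gene clr3 went from 322 and 202.4 to 145.7 and 195.6, and the sirtuin gene sir2 from 112 and 98.5 to 54.6 and 70.3. None of the 4 was called (log2 changes of -0.71 to -0.33, adjusted p = 0.13 to 0.44, limma). The coding part of rpb3, the tagged subunit, went from 452 and 330.4 to 136.9 and 195.6 and fell 2.32-fold (log2 change -1.21 ± 0.33, adjusted p = 0.0091), but was not called on the total-read scale (log2 change -0.74). The call was lost without untreated 1, TSA 1 or TSA 2. The whole entry of rpb3 went from 1666 and 1326 to 1069 and 1284 and was not called.

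Lists of genes by function were then described by their counts and medians, with no test of a list. Of 46 lists, 31 by gene name and 15 by product text, 42 had at least 10 tested members. Their medians lay between -0.19 and 0.28 relative to all coding parts, and 26 of the 42 lay within 0.1 of it. The level of a list relative to all coding parts also varied between replicates of a group. The SD of that level, pooled over the groups, ran from 0.01 to 0.22, so some of the shifts are no larger than this spread. No member rose in 36 of the 42 lists, and 11 had no call in either direction, against 1.35% of rises and 6.29% of falls over all coding parts. The sign of the relative median was the same on the total-read scale in all but 2 lists, purine and pyrimidine synthesis and mRNA 3′ end formation, both close to 0.

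**Figure D5:**
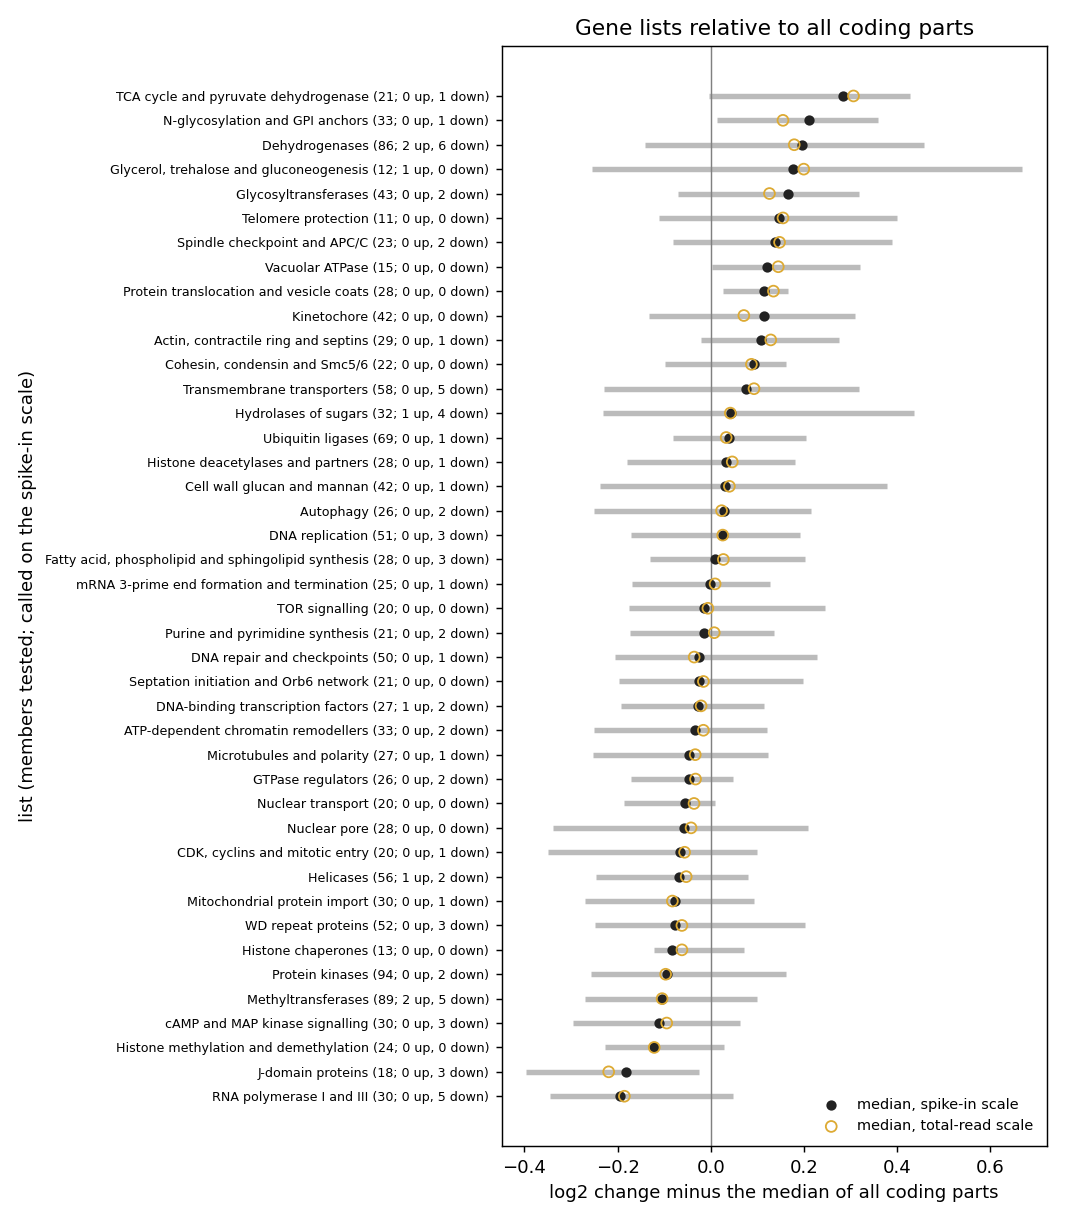
Median log2 change of each list of at least 10 tested genes minus the median of all coding parts, on the spike-in scale (black points, with grey bars from the 25th to the 75th percentile of the members) and on the total-read scale (open yellow circles). The list names give the members tested and called on the spike-in scale, and the medians run from -0.19 (RNA polymerase I and III) to 0.28 (TCA cycle).

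The highest list was that of the tricarboxylic acid (TCA) cycle and pyruvate dehydrogenase, with a median 0.28 above that of all coding parts and 15 of 21 members above it. Its 1 called member went the other way, since mae2, the malic enzyme gene, went from 3814 and 2049 normalised reads to 1010 and 1160 (log2 change -1.36, adjusted p = 0.00027). Glycosylation and GPI anchors stood 0.21 above, with 26 of 33 members above and 1 call, dpm1 (log2 change -1.02). On the total-read scale neither mae2 nor dpm1 was called. Genes of glycerol, trehalose and gluconeogenesis stood 0.18 above. There the dihydroxyacetone kinase gene dak2 rose from 129 and 61.8 to 172.8 and 212.6 (log2 change 1.05, adjusted p = 0.031). That list also held ubp1, a ubiquitin peptidase by its usual name, which does not belong to it.

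Several lists had no call. The 15 genes of the vacuolar ATPase, the proton pump of the vacuole, stood 0.12 above the median of all coding parts, from vma9 at a log2 change of -0.73 to vma21 at 0.34. Of 28 genes of protein translocation and vesicle coats, 22 stood above it, with a relative median of 0.11 and relative quartiles of 0.03 and 0.17. The members ran from sec22 at a log2 change of -0.99 to the translocon gene sec61 at 0.10. No member of the kinetochore (42 genes), of cohesin, condensin and Smc5/6 (22), of the nuclear pore (28) or of TOR signalling (20) was called.

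The lowest list held the subunits and factors of RNA polymerases I and III, which make ribosomal and transfer RNA, with a median 0.19 below that of all coding parts. Of 30 members 5 fell (16.7%, against 6.29% of all coding parts) and none rose. The Pol I initiation factor gene rrn3 went from 1249 and 632.4 to 324 and 378.3 (log2 change -1.33, adjusted p = 0.0018), rpa43 from 304 and 188.7 to 91.1 and 99.4 (-1.28, adjusted p = 0.0058) and rpa49 from 645 and 369.2 to 237.4 and 235.2 (-1.03, adjusted p = 0.028). The Pol III subunit gene rpc37 had a log2 change of -1.24. On the total-read scale none of the 30 was called. J-domain co-chaperones stood 0.18 below, with 3 of 18 fallen (16.7%), namely SPAC4H3.01, SPCC63.13 and jac1 (log2 changes of -1.31, -1.28 and -1.12). None of these 3 was called on the total-read scale.

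Most chromatin and signalling lists lay below the median of all coding parts, though not all by more than their replicates varied. The replicate SD was 0.13 for histone methylation and demethylation and 0.11 for the remodellers, whose median stood 0.03 below. It was smaller than the shift in others, at 0.06 for cAMP and MAP kinase signalling. Histone methylation and demethylation genes stood 0.12 below with no call in 24, from set2, the H3K36 methyltransferase gene, at a log2 change of -0.96 to jmj2 at -0.28. Histone chaperones stood 0.08 below with no call in 13, from pcf1 at -0.87 to hip3 at -0.23. Among 33 genes of ATP-dependent remodellers 2 fell, swc2 of the SWR complex (log2 change -1.21) and ies6 of the INO80 complex (-1.17). Of 28 HDAC genes and partners 1 fell, rxt3 (log2 change -1.04), with a median 0.03 above that of all coding parts. In cAMP and MAP kinase signalling 3 of 30 fell, the phosphorelay gene mpr1 (-1.16), the phosphodiesterase gene cgs2 (-1.09) and git11 (-1.03), and the median stood 0.11 below. Protein kinases as a product class stood 0.09 below with 2 of 94 fallen, oca2 (-1.23) and ppk22 (-1.07). The shares fallen were 6.06% of remodellers, 3.57% of HDAC genes and partners, 10% in cAMP and MAP kinase signalling and 2.13% of kinases. Over all coding parts 6.29% fell. None of the falls named in this paragraph was called on the total-read scale.

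Calls in the cell cycle and genome lists were all falls. Of 23 genes of the spindle checkpoint and anaphase-promoting complex 2 fell (8.70%, against 6.29% of all coding parts), srw1 and cut2 (log2 changes of -1.84 and -1.25), although the list's median stood 0.14 above that of all coding parts. Of 51 DNA replication genes 3 fell (5.88%), cdm1, orc3 and ssb3, each by just over 2-fold. Of 50 DNA repair and checkpoint genes only ubc13 fell (-1.02), and of 20 genes of CDK, cyclins and mitotic entry only pyp3 (-1.08). Among growth and shape lists, ghs2 of the cell wall, cdc8 of the actin cytoskeleton and alp4 of microtubules were each the 1 fall of their list. The genes ghs2 and cdc8 were 2.00-fold and alp4 2.13-fold lower. Of the falls named in this paragraph, srw1 alone was also called on the total-read scale.

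Of the 15 lists by product text, 5 held a rise. Over all coding parts 1.35% rose and 6.29% fell. The shares fallen were 6.98% of dehydrogenases, 8.62% of the transporter list and 12.5% of sugar hydrolases. Rises made up 2.33%, 0% and 3.13% of them. Of 86 dehydrogenases 2 rose, the glutamate dehydrogenase gene gdh2 (from 249 and 155.9 to 553.7 and 605.4, log2 change 1.53) and SPAPB1A11.03 (from 12 and 6.02 to 30.4 and 64.7, log2 change 1.81), and 6 fell, obr1 the most (-1.40), with a median 0.20 above that of all coding parts. The transporter list took products worded as membrane transporters, which leaves out ght3, ght4 and ght6, called as rises above. Of its 58 members 5 fell and none rose, among the falls the zinc transporter gene zrt1 (from 481 and 322.7 to 134.1 and 152, log2 change -1.43), put4 (-1.34), dal51 (-1.32) and mfs2 (-1.15). On the total-read scale none of these 4 was called. Of 32 sugar hydrolases the alpha-glucosidase gene agl1 rose (from 158 and 106.7 to 330.7 and 617.6, log2 change 1.76). In that list 4 fell, with mal1 (-1.29), eng1 (-1.14) and aah1 (-1.08) the farthest. On the total-read scale obr1, mal1, eng1 and aah1 were not called.

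Among 27 transcription factors named by product, SPBC1348.12 rose (from 25 and 20.2 to 65.1 and 71.9, log2 change 1.40), and mbx1 (-1.45) and rsv2 (-1.36) fell. Of 89 methyltransferases pcm2 (1.23, from 4 and 4.92 normalised reads) and cmt2 (1.79) rose and 5 fell, among them tae1 (-1.43) and ecm31 (-1.20). Of 56 helicases tlh2 rose, with the values given above, and dbp3 (-1.29) and dbl8 (-1.05) fell. Of 52 WD repeat proteins 3 fell, rrb1 (-1.19), crb3 (-1.17) and wdr55 (-1.02). In fatty acid, phospholipid and sphingolipid synthesis imt2 (-1.25), lcf2 (-1.07) and psd3 (-1.05) fell of 28, and in autophagy atg16 (-1.10) and atg101 (-1.09) of 26. The shares fallen were 7.41% of transcription factors, 5.62% of methyltransferases, 3.57% of helicases and 5.77% of WD repeat proteins. They were 10.7% in the lipid list and 7.69% in autophagy, against 6.29% of all coding parts. Of the transcription factors, methyltransferases and helicases 3.70%, 2.25% and 1.79% rose, against 1.35% of all. The rises named here rose on the total-read scale as well, where all changes are shifted upwards. Of the falls in this paragraph tae1 alone was also called on that scale. Every fall named from the lists lost its call without untreated 1, without TSA 1 and without TSA 2. Of the rises named from them, tlh2 kept its call without each library in turn, while cmt2, gdh2 and agl1 lost it without TSA 1 or TSA 2, SPAPB1A11.03 without untreated 1 or TSA 2, dak2 without untreated 2, TSA 1 or TSA 2, and SPBC1348.12 and pcm2 without untreated 1, TSA 1 or TSA 2.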

How the data were processed

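Nascent RNA bound to Rpb3 was read as 50 nt single-end reads in 2 untreated and 2 TSA libraries. According to the methods, the authors trimmed reads with cutadapt and kept reads that Bowtie mapped uniquely. The deposited signal is reads per entry after scaling by the authors, whose factor for each library came from budding yeast ribosomal protein genes or from total reads. Dividing by that factor gave whole reads for 100% of values, within 0.001. The methods name ASM294v2, and 99.9% of coding parts began with ATG at the deposited positions in the RefSeq ASM294v3 genome used here. The annotation source of the deposited table is not given in the sources used here. Products came from RefSeq for 5107 genes, and 416 of the 1271 genes that the files list by ID alone took its symbol.

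Coding entries were summed per gene and tested with limma 3.58.1 (lmFit, eBayes with trend, R 4.3.3) on log2 values after adding a pseudocount, the level under which 10% of the values above 0 of other entries lie (5.66 on the spike-in scale, 6.24 for total reads). Coding parts with a mean above it were tested, with Benjamini-Hochberg adjustment over all of them. Calls needed an adjusted p under 0.05 and a 2-fold change. The ratio of coding to other reads used genes whose entry exceeds the coding length by 100 nt or more. Alternatives were edgeR 4.0.16 and DESeq2 1.42.0 on recovered reads, other scalings, pseudocounts and filters, a replicate block and leaving out each library.

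The members and lists were chosen with earlier results of these data known, and the splits by ribosomal protein product, chromosome end, neighbour and antisense entry were added after the values were seen. Leading genes were the 12 largest rises and falls called on both scales with a mean of at least 50 normalised reads and no overlap of the groups. Others were the 3 next largest in each direction per class of level called on both scales, the HDAC genes and rpb3, the 10 densest in untreated cells, up to 4 called members per list, or the highest and lowest where none was called, and the 6 largest ratio changes in each direction. Input libraries were not used.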

Additional observations from a re-analysis of the deposited data

How the results depend on the processing

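On the spike-in scale 67 rises and 312 falls were called over coding parts. Total-read scaling gave 126 and 28, median-ratio scaling 130 and 20, and edgeR with TMM factors 154 and 26. With spike-in factors, edgeR gave 72 and 415 and DESeq2 58 and 394. Taking 4 times the pseudocount gave 42 and 163, and dropping the fold threshold gave 502 falls. Leaving out 1 library gave 15 to 50 rises and 2 to 1152 falls. For the ratio of coding to other reads, 9 rises and 22 falls became 18 rises under total-read scaling and 14 falls with a smaller pseudocount. Leaving out 1 library gave 6 to 12 rises and 4 to 48 falls. The sum over coding parts with TSA was 0.695 of the untreated one (0.977 on the total-read scale), and the median 0.685 (0.966). The library left out moved the first from 0.604 to 0.817 and the second from 0.589 to 0.819.

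Untreated and TSA libraries share only a replicate number, and same-numbered libraries deviated with a correlation of -0.25. A fit with the replicate block called 37 rises and 22 falls, and 8 falls of the ratio. With crossed numbers, chosen after seeing the data, the block called 67 and 312, and 29 rises and 50 falls of the ratio. With 2 libraries a group the spread is estimated from few values, and coding parts near 5.66 normalised reads have their changes understated.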
